A study of Mus musculus with 12 samples.

Results

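A set of 8 transcription factor genes out of the 47642 genes in the table of normalized counts was followed across 3 genotypes of mouse inner medullary collecting duct (mIMCD3) cells. They are Pax2, Pax8, Lhx1, Emx2, Gata2, Gata3, Tfcp2l1 and Foxi1, factors known from the nephric duct and from the collecting duct that grows out of it. They were chosen by name, but with earlier results of these data known. All 8 identifiers were found in the table. The libraries came from mIMCD3 wild-type cells, from 1 Pkd1-/- clone and from 1 Pkd2-/- clone, with 4 libraries per genotype from separate dishes. The line was derived from mice that carry the early region of SV40, which sustains its growth, so all 3 genotypes share it. The Pkd1-/- clone lacks nearly the whole Pkd1 gene, and the Pkd2-/- clone lacks exons 4 to 9 of Pkd2. RNA was taken 4 days after full confluency. Because each mutant is 1 clone, a difference between genotypes and a difference between clones cannot be told apart.

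In the embryo, Pax2 and Pax8 together start the nephric duct, and Gata3 and Lhx1 act downstream of them to guide and extend it. Gata3 also maintains expression of the receptor Ret, through which the duct answers Gdnf and sends out the ureteric bud. Emx2 is needed for the ureteric bud to branch, and Gata2 acts in urogenital morphogenesis and, in the adult collecting duct, on the water channel gene Aqp2. In the mature collecting duct, Tfcp2l1 is shared by principal and intercalated cells, and Foxi1 is the master regulator of intercalated cells.

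The targeted genes were read first. Pkd1 had 682, 688, 883 and 876 normalized counts in the wild-type libraries and 40, 49, 48 and 30 in the Pkd1-/- libraries. Pkd2 had 3438 to 4467 normalized counts in wild-type and 3855 to 4135 in Pkd2-/- libraries, since exons outside the deletion still count towards it, so that its level does not check the label. The libraries held an estimated 23200000 to 30300000 reads on genes. Markers of kidney epithelium were abundant in all libraries, with a summed level of 10 markers of 88375 to 99268 normalized counts in wild-type, 82230 to 84004 where Pkd1 was lost and 93793 to 99457 where Pkd2 was lost. Aqp2, the defining water channel of principal cells, was at 0 in all 12 libraries, so this defining marker of the labelled cell type was absent.

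For the 3 genes called against wild-type, sequence before the start of the gene is shown, because it bears on what else is transcribed there. The bases come from RefSeq on GRCm38.p6, are written 5′ to 3′ on the strand of the gene, and have each CpG in capitals. The Lhx1 stretch covers chr11:84525536-84525784 on the minus strand (249 bases, 26 CpG), the Gata2 stretch chr6:88193641-88193890 on the plus strand (250 bases, 22 CpG) and the Gata3 stretch chr2:9878601-9878850 on the minus strand (250 bases, 19 CpG).
Lhx1: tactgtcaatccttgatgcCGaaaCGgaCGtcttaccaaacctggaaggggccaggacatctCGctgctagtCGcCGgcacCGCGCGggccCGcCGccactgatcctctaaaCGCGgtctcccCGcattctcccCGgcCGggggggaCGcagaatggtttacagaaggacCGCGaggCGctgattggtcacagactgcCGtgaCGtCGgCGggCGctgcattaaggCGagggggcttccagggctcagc
Gata2: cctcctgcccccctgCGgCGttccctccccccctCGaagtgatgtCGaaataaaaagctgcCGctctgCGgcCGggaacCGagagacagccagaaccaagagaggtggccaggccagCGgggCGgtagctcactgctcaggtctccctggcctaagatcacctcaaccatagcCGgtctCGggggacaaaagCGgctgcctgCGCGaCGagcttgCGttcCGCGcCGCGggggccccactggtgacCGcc
Gata3: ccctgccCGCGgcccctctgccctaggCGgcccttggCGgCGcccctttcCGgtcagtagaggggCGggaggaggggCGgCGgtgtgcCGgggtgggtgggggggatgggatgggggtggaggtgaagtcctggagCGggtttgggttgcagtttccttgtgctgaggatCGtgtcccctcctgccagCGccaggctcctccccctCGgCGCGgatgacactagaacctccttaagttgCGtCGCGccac
Lhx1os, a long noncoding RNA gene on the opposite strand, starts 125 bases from the start of Lhx1, within the printed stretch. The Gata3 stretch precedes the RefSeq start, lies inside the longer Gata3 gene of the GENCODE annotation, and is overlapped by the antisense gene Gm13256. In windows of 300 bases around the start (250 before, 50 after), the ratio of observed to expected CpG was 0.961 for Lhx1, 0.90 for the first Gata2 start and 0.658 for Gata3, against a median of 0.384 over 32851 promoters. Among the other members, it was 0.838 for Emx2, 0.656 for Tfcp2l1, 0.288 for Pax8 and 0.232 for Foxi1. The Pax2 starts had 0.410, 0.812 and 0.789. The ratio thus did not separate the called genes from the other members. GATA words were searched on both strands of the members' windows, with AGATAA as the first word and AGATAG as its variant, beside TGATAA and its variant TGATAG. Only the Gata3 window held one, TGATAG at position 37 after its start, and 29.8% of all promoters held at least 1. The match is a description of letters and says nothing of binding.

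In wild-type cells, the levels of these genes spanned a wide range. Levels are compared between genes only as normalized counts per kilobase of annotated exon. Pax8 stood highest with 694, followed by Emx2 with 435, Pax2 with 357, Tfcp2l1 with 159, Gata3 with 57.0, Lhx1 with 6.75 and Gata2 with 0.834. Foxi1 was at 0. On this scale, Pax8 stood above 86.7% of the 18552 genes tested and Gata2 above 7.08%. The wild-type libraries of neighbours in this order did not overlap, except for Gata2 and Foxi1. The order was the same in Pkd1-/- cells, but the libraries of Gata3 (12.2) and Lhx1 (7.37) overlapped. In Pkd2-/- cells Pax2 (556) stood above Emx2 (371), with no overlap between their libraries, and Gata2 was at 0 like Foxi1. Orders between genes rest on annotated exon length, which need not be the length transcribed in these cells.

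**Figure D1:**
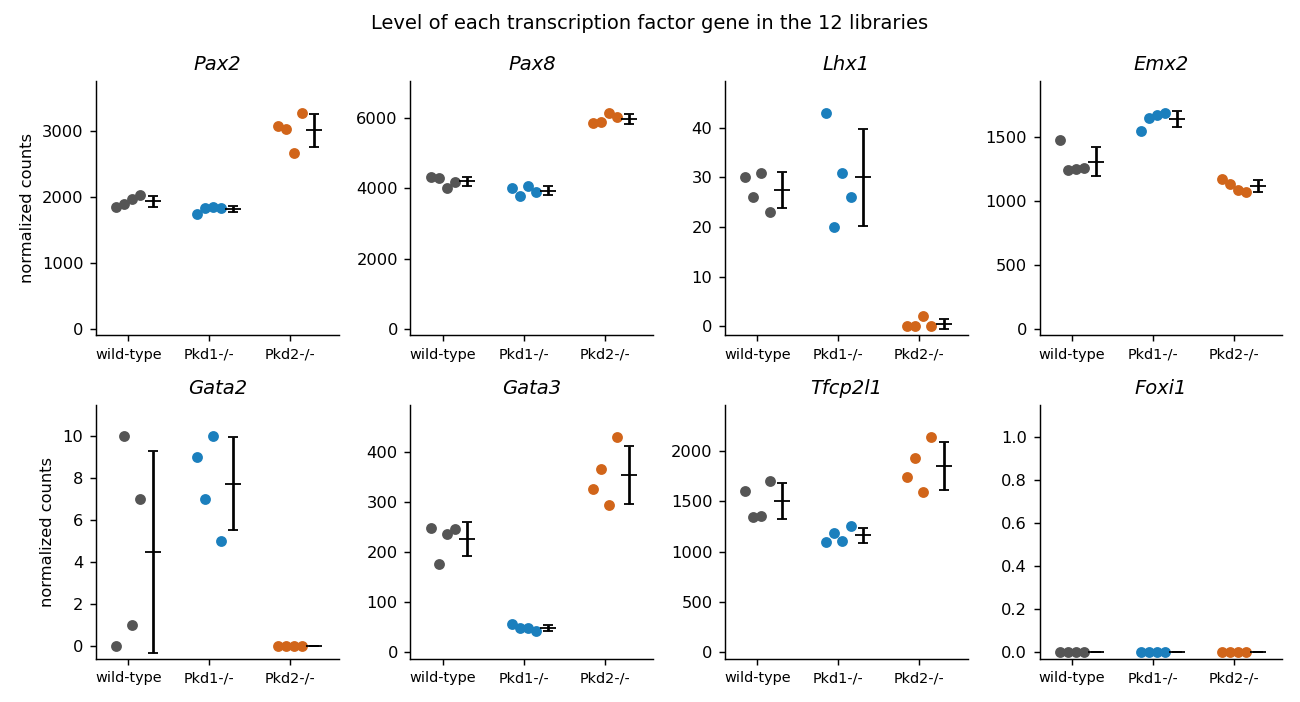
Normalized counts (y axis, separate linear scale for each gene) of the 8 transcription factor genes in the 12 libraries. Each dot is 1 library, grouped by genotype on the x axis, and the bar beside it is the mean with its SD (n = 4). Gata3 sits lowest in Pkd1-/- cells, Lhx1 and Gata2 lie at or near 0 in Pkd2-/- cells, Pax2 and Pax8 are higher in Pkd2-/- cells, and Foxi1 is at 0 throughout.

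Genotypes were compared with limma on log2(normalized count + 1) over the 18552 genes whose mean reached 1 normalized count, with p-values adjusted by Benjamini-Hochberg over all of them. A gene was called when its adjusted p was under 0.05 and its log2 fold change was 1 or more, up or down. Of the 8 genes, 7 passed the filter and were tested, and Foxi1 was not. In addition, an exact two-sided permutation test compared 4 libraries with 4, and its smallest possible p is 0.0286. Both comparisons with wild-type use the same 4 wild-type libraries, so their results are not independent of each other.

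The loss of Pkd1 was compared with wild-type first, and 1 of the 7 genes was called, namely Gata3, which fell. Over all genes tested, 6.24% were called in this comparison, 2.96% higher and 3.28% lower. In bulk RNA, fewer cells expressing a gene and less RNA per cell cannot be told apart. At an adjusted p under 0.05 alone, 3 of the 7 differed (Emx2 higher, Gata3 and Tfcp2l1 lower), against 27.1% of all genes. The median log2 fold change of the 7 was -0.09, and that of all genes was 0.01. In Pkd2-/- cells, Lhx1 and Gata2 were called, both lower, against 9.62% of all genes in either direction and 6.38% lower. All 7 differed at an adjusted p under 0.05 alone, against 42.3% of all genes. Pax2, Pax8, Gata3 and Tfcp2l1 were higher, and Lhx1, Emx2 and Gata2 were lower. The median of the 7 was 0.30, and that of all genes was -0.01. The size of the falls of Lhx1 and Gata2 cannot move the median of the 7, since both lie below it in any case. Between the mutants, Gata3 was called higher and Lhx1 and Gata2 lower in Pkd2-/- than in Pkd1-/- cells, against 11.8% of all genes (4.53% higher, 7.23% lower).

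**Figure D2:**
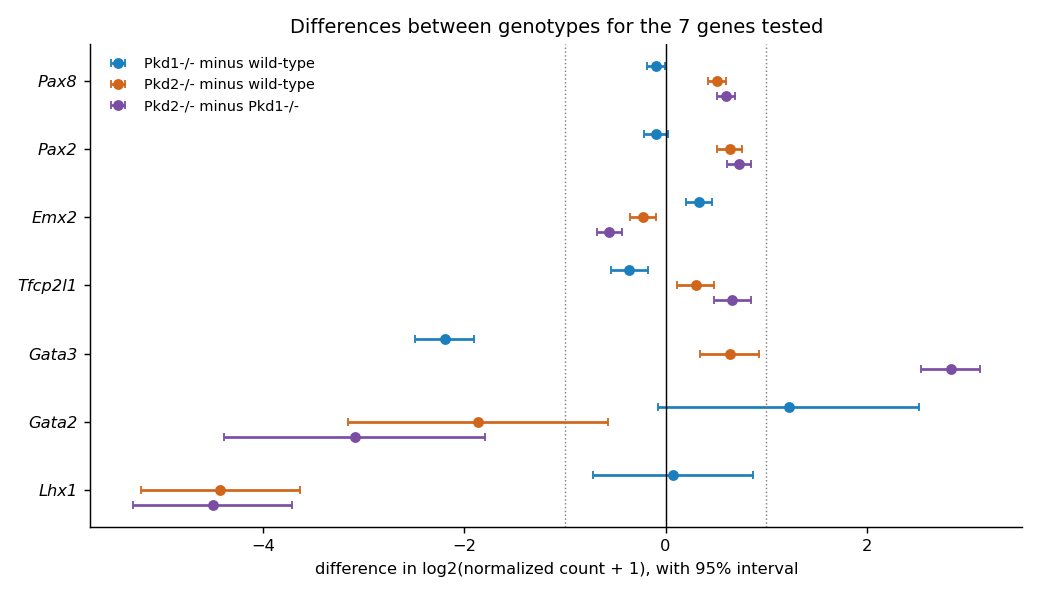
Difference in log2(normalized count + 1) between genotypes (x axis) for the 7 genes tested (y axis), with the limma estimate as a dot, its 95% interval as a bar and 1 colour per comparison. Dotted lines mark a log2 fold change of 1 in either direction. Gata3 lies at -2.20 in Pkd1-/- and 0.64 in Pkd2-/- cells, Lhx1 at 0.08 and -4.43. The estimates of Lhx1 and Gata2 in Pkd2-/- cells depend on the pseudocount.

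Pax2 and Pax8 are paired-box factors that overlap in function when the duct forms and mark the renal epithelium afterwards. Pax2 (chr19:44756045-44837871, plus strand) had 1843, 1883, 1966 and 2026 normalized counts in wild-type libraries. It had 1744, 1824, 1837 and 1829 in Pkd1-/- and 3076, 3031, 2660 and 3263 in Pkd2-/- libraries. All Pkd2-/- libraries lay above all others, and all Pkd1-/- libraries lay just below all wild-type libraries. Wild-type cells had a mean of 1929.5 ± 82.2, Pkd1-/- cells of 1808.5 ± 43.3 and Pkd2-/- cells of 3007.5 ± 253 (SD, n = 4 each). The log2 fold change was 0.64 in Pkd2-/- cells (standard error 0.06, adjusted p = 3.48e-08 from limma) and -0.09 in Pkd1-/- cells (adjusted p = 0.264). The exact permutation test gave p = 0.0286 in both comparisons.

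Pax8 (chr2:24420560-24475599, minus strand) had 4315, 4288, 4023 and 4190 normalized counts in wild-type libraries. It had 4003, 3787, 4072 and 3887 in Pkd1-/- and 5872, 5884, 6145 and 6043 in Pkd2-/- libraries. The Pkd2-/- libraries stood clear of both other genotypes, which overlapped each other. The log2 fold change was 0.51 in Pkd2-/- cells (standard error 0.04, adjusted p = 1.08e-08 from limma), a level 1.42-fold that of wild-type. The change in Pkd1-/- cells was -0.10 (adjusted p = 0.108; exact permutation p = 0.0571). Neither Pax gene reached the fold change needed for a call.

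Pax2 and Emx2 lie on chromosome 19, Pax8 and Gata3 on chromosome 2, and these were the chromosomes whose genes stood highest in Pkd2-/- cells. Over genes whose mean reached 10 normalized counts, the median of the log2 fold changes in Pkd2-/- cells was 0.33 on chromosome 2 and 0.28 on chromosome 19, and between -0.11 and 0.04 on the other 19 chromosomes. Set against the median of its chromosome, an alternative chosen after the data were seen, the change was 0.36 for Pax2, 0.18 for Pax8 and 0.31 for Gata3. Emx2, lower than wild-type, stood 0.51 below its chromosome (-0.51). Pax8 exceeded 71.4% of the genes of chromosome 2, Gata3 82.2% of them, and Pax2 81.7% of the genes of chromosome 19. The part of the chromosome in the higher levels of Pax2, Pax8 and Gata3 was not tested. The medians in Pkd1-/- cells were 0.05 on chromosome 2 and 0.18 on chromosome 19. Against these, Emx2 stood at 0.16 in Pkd1-/- cells in place of 0.33, Pax2 at -0.27 in place of -0.09, Pax8 at -0.14 in place of -0.10 and Gata3 at -2.25 in place of -2.20.

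**Figure D3:**
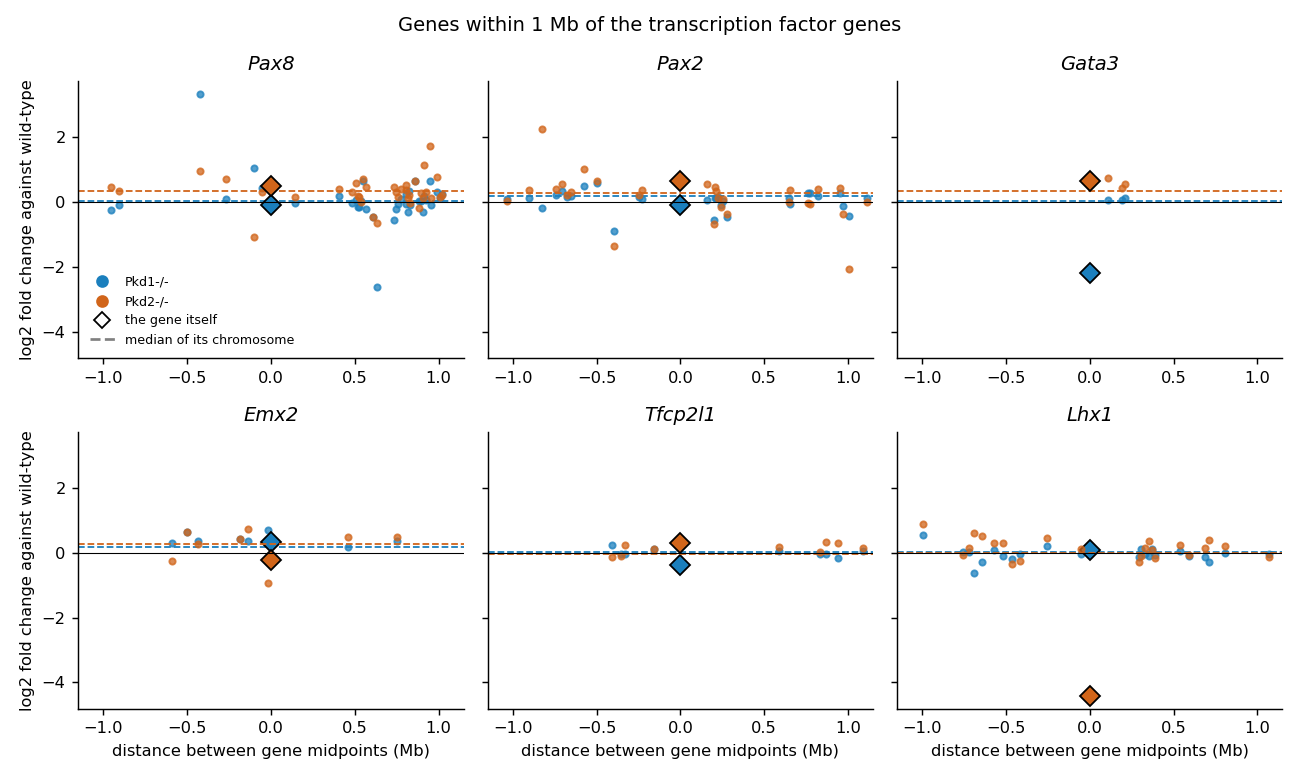
Log2 fold change against wild-type (y axis) of genes within 1 Mb of 6 of the transcription factor genes, by the distance between gene midpoints in Mb (x axis). Dots are genes whose mean reached 10 normalized counts, diamonds the named gene itself, and dashed lines the median of its chromosome, in blue for Pkd1-/- and orange for Pkd2-/- cells. Around Pax8 and Gata3 the orange line lies at 0.33. The blue diamond of Gata3 and the orange diamond of Lhx1 lie far from the dots drawn around them. Itih2 and Sfmbt2 near Gata3 had means under 10 and are not drawn. Their log2 fold changes in Pkd1-/- cells were -2.12 and -3.79, beside -2.20 for Gata3. In Pkd2-/- cells they were -3.77 and -3.79, beside 0.64 for Gata3. Both values of Sfmbt2 depend on the pseudocount, since it was at 0 in both mutants. Lhx1os near Lhx1 (-1.90 in Pkd2-/- cells) is not drawn either.

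Gata3 and Gata2 are zinc finger factors that bind GATA words. Gata3 (chr2:9857078-9890034, minus strand) had 248, 176, 236 and 247 normalized counts in wild-type libraries. It had 56, 48, 48 and 42 in Pkd1-/- and 327, 366, 294 and 430 in Pkd2-/- libraries. The 3 genotypes did not overlap, with Pkd1-/- lowest and Pkd2-/- highest. Its level in Pkd1-/- cells was 4.58-fold lower than in wild-type (log2 fold change -2.20, standard error 0.14, adjusted p = 6.34e-10 from limma). In Pkd2-/- cells the log2 fold change was 0.64 (adjusted p = 9.68e-04), short of the fold needed for a call. Between the mutants Gata3 was 7.14-fold higher in Pkd2-/- cells (log2 fold change 2.84, adjusted p = 5.03e-12). Only 1.32% of the genes on chromosome 2 had a lower fold change than Gata3 in Pkd1-/- cells. Within 1 Mb, 6 other genes were tested. Of these, Itih2 and Sfmbt2 were called, both lower in both mutants. Over all genes tested, 3.28% were called lower in Pkd1-/- and 6.38% in Pkd2-/- cells. Itih2 and Sfmbt2 were named after their values were seen. Itih2 had 35, 14, 15 and 15 normalized counts in wild-type, 3, 6, 6 and 1 in Pkd1-/- and 0, 0, 1 and 1 in Pkd2-/- libraries. Sfmbt2 had 8 to 20 in wild-type and 0 in all libraries of both mutants. All 6 together had medians of 0.07 and 0.50 where Pkd1 or Pkd2 was lost. That of the 3 whose mean reached 10 normalized counts was 0.08 and 0.55. The genes that overlap Gata3 (Gm13256, 4930412O13Rik and 9230102O04Rik) had at most 3 normalized counts in any library.

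Gata2 (chr6:88193891-88207032, plus strand) was barely detected. It had 0, 10, 1 and 7 normalized counts in wild-type, 9, 7, 10 and 5 in Pkd1-/- and 0 in all 4 Pkd2-/- libraries. Wild-type libraries overlapped both mutants, and only the mutants were apart from each other. With Pkd2-/- cells set at a floor of 3 counts per library, Gata2 was 1.5-fold lower there than the wild-type mean. That ratio leaves out the spread of the wild-type libraries, which lay on either side of the floor, so it is no firm bound. Gata2 was called in this comparison (adjusted p = 0.0202 from limma; exact permutation p = 0.143). This call rests on 2 libraries, since without wild-type replicate 2 the adjusted p was 0.0927 and without replicate 4 it was 0.0776. Gata2 was also called lower in Pkd2-/- than in Pkd1-/- cells (adjusted p = 3.79e-04 from limma). Against the Pkd1-/- mean the floor gave a ratio of 2.58, which leaves out the spread of those libraries as well. The difference between Pkd1-/- and wild-type (1.23 on the log2 scale, 95% interval -0.07 to 2.52, adjusted p = 0.161) did not pass. It was 0.605 without wild-type replicate 1 (adjusted p = 0.484) and passed at 1.76 without wild-type replicate 2 (adjusted p = 0.0403).

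Lhx1 and Emx2 are homeobox factors. Lhx1, a LIM homeobox factor of the extending duct (chr11:84518284-84525535, minus strand), had 30, 26, 31 and 23 normalized counts in wild-type libraries. It had 43, 20, 31 and 26 in Pkd1-/- and 0, 0, 2 and 0 in Pkd2-/- libraries. The Pkd2-/- libraries were all at or near 0, while the other genotypes overlapped. Against the floor of 3 counts per library, Lhx1 was at least 9.17-fold lower in Pkd2-/- cells than in wild-type (adjusted p = 1.82e-08 from limma). It was at least 10.0-fold lower than in Pkd1-/- cells (adjusted p = 1.08e-08). A difference of Pkd1-/- cells from wild-type was not detectable at this level (0.08 on the log2 scale, 95% interval -0.72 to 0.87, adjusted p = 0.916), and its sign turned without wild-type replicate 4 or Pkd1-/- replicate 1. Lhx1os, whose start is shown above, had 5, 15, 1 and 0 normalized counts in wild-type, 1, 3, 10 and 8 in Pkd1-/- and 0 in all 4 Pkd2-/- libraries (adjusted p = 0.0421 in Pkd2-/- cells). Both genes of the pair were thus at or near 0 in Pkd2-/- cells, at counts where Lhx1os alone says little. Aatf, the next gene on the other side, had 1711 normalized counts in wild-type and 1846 in Pkd2-/- cells (adjusted p = 0.0868).

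Emx2 (chr19:59458372-59465357, plus strand) had 1476, 1243, 1246 and 1257 normalized counts in wild-type libraries. It had 1550, 1650, 1674 and 1685 in Pkd1-/- and 1173, 1131, 1083 and 1068 in Pkd2-/- libraries. The 3 genotypes did not overlap, with Pkd1-/- highest and Pkd2-/- lowest, the reverse of Gata3. The log2 fold change was 0.33 in Pkd1-/- (standard error 0.06, adjusted p = 3.34e-04 from limma) and -0.23 in Pkd2-/- cells (adjusted p = 0.00504). Between the mutants it was -0.56 (adjusted p = 3.29e-07), and no comparison reached the fold needed for a call. Emx2os, an antisense RNA gene that overlaps the first 264 bases of Emx2, had 120, 113, 113 and 117 normalized counts in wild-type. It had 173, 204, 186 and 194 in Pkd1-/- and 75, 48, 59 and 60 in Pkd2-/- libraries. Emx2os was therefore ordered like Emx2, with log2 fold changes of 0.70 (adjusted p = 4.41e-04) and -0.94 (adjusted p = 1.01e-05). Whether reads were counted by strand is not stated, so reads from the overlap cannot be assigned to either gene.

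Tfcp2l1, a grainyhead-like factor of the collecting duct (chr1:118627945-118685168, plus strand), had 1602, 1342, 1357 and 1698 normalized counts in wild-type libraries. It had 1100, 1190, 1107 and 1250 in Pkd1-/- and 1739, 1927, 1595 and 2138 in Pkd2-/- libraries. Every Pkd1-/- library lay below every wild-type library, while Pkd2-/- and wild-type overlapped. The log2 fold change was -0.36 in Pkd1-/- cells (standard error 0.09, adjusted p = 0.00398 from limma) and 0.30 in Pkd2-/- cells (adjusted p = 0.00911; exact permutation p = 0.0857). Between the mutants it was 0.66 (adjusted p = 4.04e-06). Foxi1 (chr11:34204338-34208089, minus strand), the forkhead factor of intercalated cells, had 0 normalized counts in all 12 libraries, which allows up to 3 counts per library.

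In the exact permutation test, the libraries of Pax2, Emx2, Gata3 and Tfcp2l1 did not overlap between Pkd1-/- and wild-type cells, 4 of 7 genes, against 27.1% of all genes. Between Pkd2-/- and wild-type cells, 5 of 7 did not overlap (Pax2, Pax8, Lhx1, Emx2 and Gata3), against 37.2% of all genes. Between the mutants all 7 were apart, against 41.8%.

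Among the relatives of these factors, Pax3 and Pax9 had the largest log2 fold changes in Pkd2-/- cells. Pax3, a paired-box factor of neural crest and muscle, had 63 to 78 normalized counts in wild-type and 328 to 386 in Pkd1-/- libraries, and 1, 0, 0 and 0 in Pkd2-/- libraries. It rose in Pkd1-/- cells (log2 fold change 2.35, adjusted p = 3.29e-07 from limma) and was at least 23.5-fold lower than wild-type in Pkd2-/- cells (adjusted p = 3.61e-13). Pax9 ranged over 464 to 541 normalized counts in wild-type libraries, over 59 to 90 in Pkd1-/- and over 42 to 64 in Pkd2-/- libraries. It fell in both mutants, by 2.70 and 3.24 on the log2 scale (adjusted p = 6.14e-11 and 1.75e-12). Of the 7 other Pax genes, Pax1, Pax4, Pax5 and Pax7 held at most 3 normalized counts in every library, and Pax6 had means of 10.0, 3.25 and 3.00 in wild-type, Pkd1-/- and Pkd2-/- cells. Isl2, a LIM homeobox relative of Lhx1, fell by 1.60 in Pkd2-/- cells (59 to 103 normalized counts in wild-type, 15 to 27 in Pkd2-/- libraries, adjusted p = 1.11e-05). Isl1 was at 0, 0, 0 and 1 in wild-type and at 7, 7, 14 and 4 in Pkd1-/- libraries (adjusted p = 1.86e-04). Of the 11 Lhx, Lmx1 and Isl genes other than Lhx1, 7 held at most 3 normalized counts throughout.

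Gata4 and Gata5 held at most 3 normalized counts in every library, and the means of Gata1 and Gata6 were at most 2.50 in each genotype. Emx1, Foxi2 and Foxi3 were likewise at 0 to 2. In the family of Tfcp2l1, all 5 relatives were expressed. Of these, 1 was called in Pkd1-/- and 0 in Pkd2-/- cells, against 6.24% and 9.62% of all genes. Grhl3, a grainyhead factor of epidermal barriers, had 59 to 87 normalized counts in wild-type and 157 to 189 in Pkd1-/- libraries (log2 fold change 1.26, adjusted p = 1.17e-04). Grhl2, a regulator of epithelial junctions, was the most abundant in counts, with means of 3354, 3291 and 3825 in wild-type, Pkd1-/- and Pkd2-/- cells.

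Of 24 genes for proteins that act with these factors, 20 were tested. Of these, 0 rose and 1 fell in Pkd1-/- cells, Lmo2 (means of 5.50 and 0.75 normalized counts). In Pkd2-/- cells 2 rose and 1 fell. Over all genes tested, 2.96% rose and 3.28% fell in Pkd1-/- cells, and 3.24% rose and 6.38% fell in Pkd2-/- cells. The median log2 fold change of the list was 0.06 and -0.09. Zfpm1 (Fog1), a cofactor of GATA factors, had 203, 200, 220 and 156 normalized counts in wild-type and 1020, 995, 993 and 1014 in Pkd2-/- libraries. No library of the groups overlapped, and the log2 fold change was 2.37 (adjusted p = 2.45e-13 from limma). Its relative Zfpm2 had means of 1674, 1841.5 and 1136 normalized counts in wild-type, Pkd1-/- and Pkd2-/- cells. Tle4, a Groucho corepressor that Pax proteins recruit, rose in Pkd2-/- cells (434 to 486 against 1026 to 1211 normalized counts, log2 fold change 1.26, adjusted p = 1.98e-10). Ssbp2, which joins the Ldb1 complex that LIM homeobox factors use, fell by 1.03 (adjusted p = 4.70e-09). Ldb1 itself had a log2 fold change of 0.02 (adjusted p = 0.767). Eya1, a transcriptional coactivator of kidney development, had means of 3000.5, 5298.5 and 1983 normalized counts in wild-type, Pkd1-/- and Pkd2-/- cells. On the log2 scale, loss of Pkd1 went with a difference from wild-type of 0.82 and loss of Pkd2 with one of -0.60.

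Of 33 other genes of the nephric duct and ureteric bud, 27 were tested. Of these, 6 rose and 2 fell in Pkd1-/- cells, with a median of 0.14, and in Pkd2-/- cells 3 rose and 6 fell, with a median of 0.12. The shares over all genes were 2.96% and 3.28% where Pkd1 was lost and 3.24% and 6.38% where Pkd2 was lost. Gfra1, the coreceptor for Gdnf, had 0, 0, 2 and 4 normalized counts in wild-type, 1837, 1941, 1884 and 2043 in Pkd1-/- and 4, 5, 4 and 6 in Pkd2-/- libraries. Gfra1 was thus abundant in Pkd1-/- cells alone among the 3 genotypes (adjusted p = 9.56e-13 against wild-type from limma). Its partner Ret was at 0 in all 12 libraries. Robo2, a receptor that limits budding, had 4, 2, 5 and 2 normalized counts in wild-type, 274, 284, 266 and 283 in Pkd1-/- and 0 in all Pkd2-/- libraries (adjusted p = 2.13e-11 in Pkd1-/- cells). Osr1, an early factor of the intermediate mesoderm, rose in Pkd1-/- cells (2.32, adjusted p = 8.77e-09) and fell by 1.44 in Pkd2-/- cells (adjusted p = 2.21e-06). Its levels were 44 to 74, 274 to 336 and 18 to 28 normalized counts in wild-type, Pkd1-/- and Pkd2-/- libraries. Etv4 and Etv5, targets of Ret signalling in the bud tip, both rose in Pkd1-/- cells (1.75 and 1.45, adjusted p = 0.0116 and 1.14e-05), and Etv5 also rose in Pkd2-/- cells (1.04, adjusted p = 2.17e-04). Spry1, an antagonist of Ret signalling, had 3376 to 4262 normalized counts in wild-type and 6241 to 9873 in Pkd2-/- libraries (0.99, adjusted p = 2.24e-07), just short of a call. Sox8 fell in both mutants, from 9 to 17 normalized counts in wild-type to at most 3. Ctnnb1, Npnt, Wnt7b and Egfr, the most abundant of the list in wild-type, were not called in either mutant. Ret, Sall4, Wnt9b, Grem1, Itga8 and Cxcr4 held at most 3 normalized counts in every library.

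**Figure D4:**
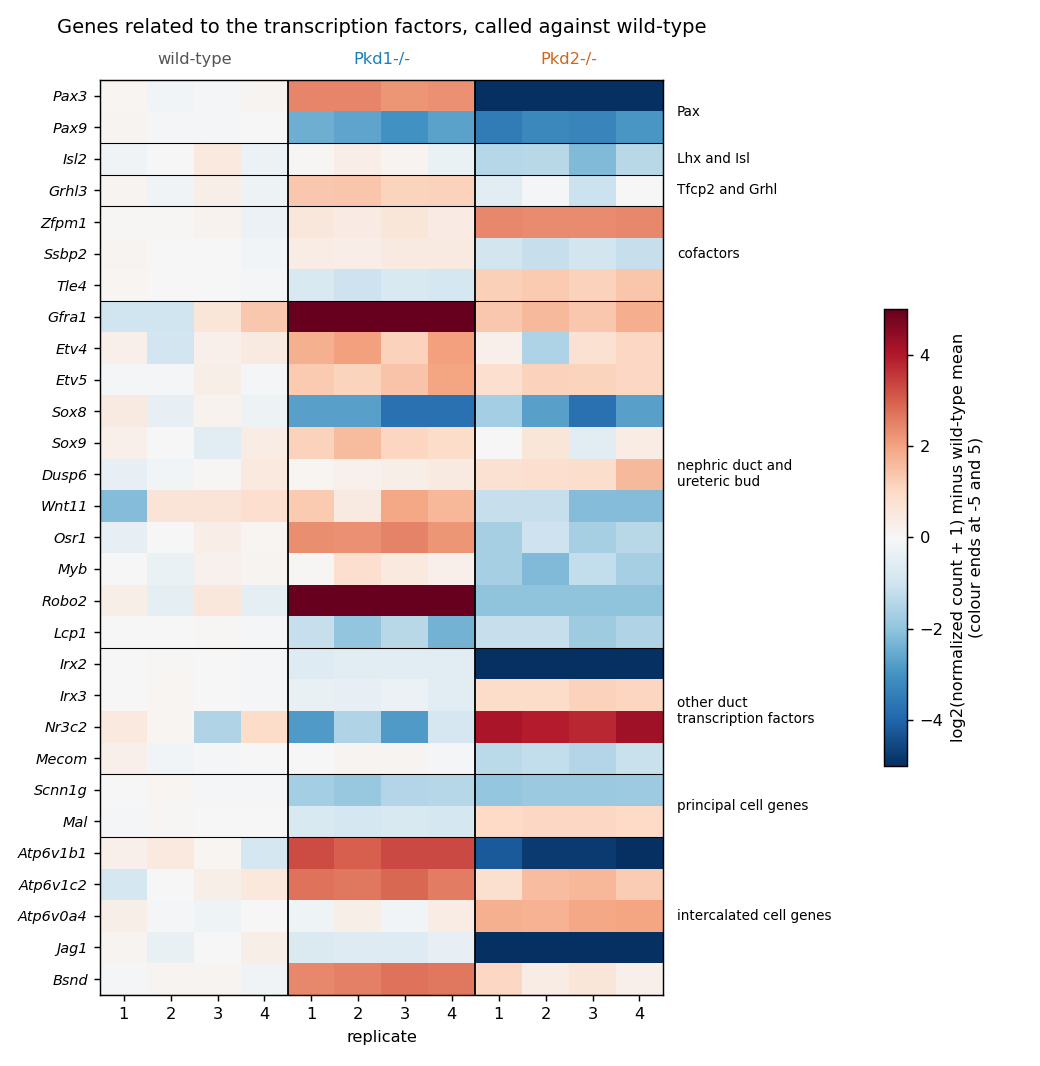
Level of 29 genes related to the transcription factors (rows, grouped by list at the right) in the 12 libraries (columns, by genotype and replicate), as log2(normalized count + 1) minus the wild-type mean, with colour ends at -5 and 5. Shown are the genes called in a comparison with wild-type whose mean reached 10 normalized counts in some genotype. Gfra1 and Robo2 are dark red in Pkd1-/- cells, and Pax3, Irx2, Jag1 and Atp6v1b1 dark blue in Pkd2-/- cells.

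Of 28 other transcription factors of duct epithelium, 19 were tested. In Pkd1-/- cells 1 rose and 3 fell (median -0.03), and in Pkd2-/- cells 2 rose and 5 fell (median 0.11), against 6.24% and 9.62% of all genes called in either direction. Irx2, an Iroquois homeobox factor, had 532 to 582 normalized counts in wild-type libraries, 360 to 391 where Pkd1 was lost and 0 in all Pkd2-/- libraries, at least 187-fold lower than wild-type (adjusted p = 6.08e-19 from limma). Irx3, another Iroquois factor, rose in the same cells (984 to 1114 against 2010 to 2326, log2 fold change 1.02, adjusted p = 1.73e-10). Nr3c2, the mineralocorticoid receptor, had 19, 14, 4 and 26 normalized counts in wild-type, 1, 4, 1 and 7 in Pkd1-/- and 241, 214, 190 and 265 in Pkd2-/- libraries. It fell in Pkd1-/- cells (adjusted p = 0.00335) and rose in Pkd2-/- cells (4.00, adjusted p = 1.29e-06). Mecom fell by 1.29 in Pkd2-/- cells (adjusted p = 5.25e-10). Ehf and Foxc1, the most abundant in wild-type, were not called.

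Of 20 principal cell genes, 11 were tested, and 9 held at most 3 normalized counts throughout, among them Aqp2, Aqp4 and the vasopressin receptor Avpr2. In Pkd1-/- cells 1 rose and 2 fell (median -0.19), and in Pkd2-/- cells 2 rose and 1 fell (median -0.08), where 6.24% and 9.62% of all genes were called. Scnn1g, the gamma subunit of the epithelial sodium channel, fell in both mutants, with 876 to 988 normalized counts in wild-type libraries, 249 to 347 where Pkd1 was lost and 243 to 265 where Pkd2 was lost (adjusted p = 1.37e-10 and 7.94e-12). Mal, a protein of apical transport, had means of 11642, 6557 and 23588 normalized counts in wild-type, Pkd1-/- and Pkd2-/- cells, and rose in Pkd2-/- cells (1.02, adjusted p = 9.24e-13).

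Of 26 intercalated cell genes, 13 were tested, and 12 held at most 3 normalized counts throughout, among them the proton pump genes Atp6v0d2 and Atp6v1g3. In Pkd1-/- cells 4 rose and 0 fell (median 0.30), and in Pkd2-/- cells 2 rose and 3 fell (median 0.25). Of all genes, 2.96% rose and 3.28% fell with loss of Pkd1, and 3.24% rose and 6.38% fell with loss of Pkd2. Atp6v1b1, the B1 subunit of the proton pump and a known target of Foxi1, had 65, 76, 58 and 29 normalized counts in wild-type. It had 528, 437, 544 and 543 in Pkd1-/- and 2, 1, 1 and 0 in Pkd2-/- libraries. It rose in Pkd1-/- cells (3.23, adjusted p = 1.87e-07 from limma) and was at least 19-fold lower than wild-type in Pkd2-/- cells (adjusted p = 2.67e-10), with Foxi1 at 0 in all of these libraries. Bsnd, the chloride channel subunit barttin, rose in Pkd1-/- cells from 32 to 41 normalized counts to 197 to 248 (2.57, adjusted p = 1.04e-09). Atp6v0a4 rose in Pkd2-/- cells (31 to 44 against 122 to 143, log2 fold change 1.86, adjusted p = 8.16e-08). Jag1, a Notch ligand, had 152 to 238 normalized counts in wild-type and 4, 1, 0 and 1 in Pkd2-/- libraries (adjusted p = 1.15e-11).

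Marker lists were read beside these levels. Of the 10 kidney epithelial markers, 0 were higher and 6 were lower in Pkd1-/- cells at an adjusted p under 0.05, against 13.6% and 13.5% of all genes, and the list had a median of -0.27. Gata3 and Tfcp2l1 were lower in the same cells. In Pkd2-/- cells 5 were higher and 3 lower, against 20% and 22.3% of all genes, with a median of 0.15, where Pax2, Pax8, Gata3 and Tfcp2l1 were higher. Krt19, an epithelial keratin, was the 1 marker of 10 called in each mutant, against 6.24% and 9.62% of all genes. Its means were 4472, 1329 and 1409 normalized counts in wild-type, Pkd1-/- and Pkd2-/- cells. The part of these shifts in the levels of the transcription factors was not tested. Of the 9 proximal tubule markers, 5 held at most 3 normalized counts in every library, with Slc34a1, Slc5a12, Slc22a6 and Slc27a2 at 0. The summed level of the list was 493 to 575 normalized counts in wild-type libraries, 51 to 88 where Pkd1 was lost and 749 to 1224 where Pkd2 was lost. Nearly all of it was Lrp2 (megalin), with means of 508, 46.3 and 934.5 in that order. The means of Pax2, Pax8, Gata3 and Tfcp2l1 had the same order of genotypes, and the part of this list in their levels was not tested. Of the 8 loop and distal tubule markers, 6 held at most 3 normalized counts throughout, with Slc12a1 at 0, and the list summed to 231 to 289 in wild-type, 254 to 305 in Pkd1-/- and 329 to 410 in Pkd2-/- libraries, nearly all of it Trpm6. Of the 6 endothelial markers, Cdh5 and Kdr were at 0, and the list summed to 1 to 13 normalized counts over all libraries. Of the 7 leukocyte markers, Adgre1, Itgam, Cd3e and Ms4a1 were at 0, and the list summed to 893 to 1000 normalized counts in wild-type libraries, 428 to 652 where Pkd1 was lost and 732 to 826 where Pkd2 was lost. Most of it was Csf1r, with means of 880.5, 479 and 734 in that order, and Ptprc was called lower in Pkd1-/- cells (means of 3.00 and 0.25).

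Of the 6 podocyte markers, 4 held at most 3 normalized counts throughout, with Ptpro at 0. The list summed to 3045 to 3321 in wild-type, 3354 to 3480 in Pkd1-/- and 2035 to 2169 in Pkd2-/- libraries, nearly all of it Synpo, an actin-binding protein. Of the 6 urothelial markers, Krt5 was at 0, and the list summed to 505 to 618 in wild-type, 324 to 356 in Pkd1-/- and 305 to 359 in Pkd2-/- libraries. Upk3a, a uroplakin, was called lower in both mutants, with means of 359.5, 115 and 160.5. The 8 stromal markers summed to 2405 to 2655 in wild-type, 1699 to 1866 in Pkd1-/- and 2031 to 2327 in Pkd2-/- libraries. Most of this was Foxd1, with means of 2343, 1586.5 and 2104.5, while Col3a1 was called higher in Pkd1-/- cells (4.75 against 66.3) and Acta2 and Pdgfrb lower in Pkd2-/- cells (119.5 against 21 and 2.50 against 0). The podocyte list was lowest in Pkd2-/- cells, like Lhx1, Emx2 and Gata2. The leukocyte and stromal lists were lowest in Pkd1-/- cells, like the means of Pax2, Pax8, Gata3 and Tfcp2l1. Their part in those levels was not tested.

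For the members called against wild-type, the genes with the most similar pattern over the 12 libraries were found by the root mean square difference in log2(normalized count + 1), each taken relative to its wild-type mean. For Gata3, they were Veph1 (difference 0.23), Lcn2 (0.23) and Mmp15 (0.29) among 13702 genes compared. Lcn2, a secreted siderophore binder, had 2616 to 2954 normalized counts in wild-type libraries, 558 to 710 where Pkd1 was lost and 4334 to 5249 where Pkd2 was lost. Veph1 had 1600 to 2052, 404 to 452 and 2115 to 2507. For Lhx1, they were Lynx1 (0.37), Mycn (0.38) and Immp2l (0.42). Mycn, a Myc family factor, had 17 to 24 normalized counts in wild-type libraries, 23 to 37 where Pkd1 was lost and 0, 0, 1 and 0 where Pkd2 was lost. For Gata2, the closest genes were farther, with Rgs11 (0.69), Hnf4g (0.72) and Nudt16 (0.75). Only genes that reached a minimum mean count were compared, and Gata2 itself did not reach it. Its wild-type mean was 4.5 normalized counts, against 18.5, 15.0 and 19.5 for these genes in that order. Genes at the level of Gata2 were thus left out, and its own wild-type libraries varied widely. The larger distances therefore cannot be read as a feature of its pattern. Lhx1 and Gata2 were at or near 0 in Pkd2-/- cells, so the size of their falls depends on their wild-type counts and on the pseudocount. A gene lost as fully from a much higher wild-type count, such as Irx2, cannot come close to either. The 3 genes listed for Lhx1 had wild-type counts similar to its own. Both lists therefore depend on count level as well as on pattern.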

How the data were processed

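RNA of 12 libraries was sequenced, 4 of each genotype. Per the study's methods, the authors used Trim Galore for trimming, HISAT2 for alignment to mouse build GRCm38 and HTSeq for gene counts, which were then divided by DESeq2 size factors. The deposited values, treated here as score values, are these normalized counts rounded by the authors to whole numbers. They are not read counts, so no count model was used. Whether reads were counted by strand is not given in the sources used here. The worth of 1 read (0.886 to 1.13 normalized counts) and the depth were estimated from the spacing of low values, and 0 sample columns were left unused.

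Identifiers were matched to GENCODE M21 (47223 of 47642), and promoter windows came from RefSeq. The analysis used R 4.3.3 with limma 3.58.1 (lmFit, eBayes with a trend, all 12 libraries in 1 model) and Python 3.11.15 with pandas 2.3.3 and scipy 1.17.1. The pseudocount was 1 and the minimum mean 1. Bounds used a floor of 3 normalized counts, which covers counting error only. They divide a group mean by this floor, so the spread between libraries is left out. Replicates are dishes of 1 line, so p-values measure the spread between dishes.

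Replicate numbers were shared between genotypes. Deviations of the 12 same-numbered pairs correlated between -0.07 and 0.20, with 2 of 12 over 0.1. These were pairs of replicate 4, which correlated best with its own number in every pair of genotypes (0.09, 0.20 and 0.17). The cause of this was not tested. The libraries were treated as unpaired, with a replicate block as an alternative. No pair of libraries was identical. Members and lists were chosen with earlier results of these data known. Named genes are the 8 members, their families, genes overlapping them, and from each other list those called with the largest changes, the most abundant in wild-type and those near 0, with the 3 most similar genes of each member called. Some of the named list genes (Spry1, Zfpm2, Eya1, Etv5, Lmo2, Pdgfrb, Ptprc) were picked after their values were seen. Tle5 was read under its older symbol Aes. Alternatives were other pseudocounts, filters, scaling, variance models and fold thresholds, a replicate block, 2 genotypes at a time, a chromosome reference and leaving out each library. Some list genes are not reported here.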

Additional observations from a re-analysis of the deposited data

Results flagged for a closer look

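A library stood apart from the other 3 of its genotype, by a gap above Dixon's critical value for 4 samples, in 4 of 20 groups checked, where chance gives about 1 in 20. Pax2 was at 1744 normalized counts in Pkd1-/- replicate 1, below the others, which held 1824 to 1837. Lhx1 was at 2 in Pkd2-/- replicate 3, where the others were at 0. Beside 3 values of 0 any other count stands apart, so the chance rate does not apply to this group. Emx2 was at 1476 in wild-type replicate 1, above the others at 1243 to 1257. Gata3 was at 176 in wild-type replicate 2, below the others at 236 to 248.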

How the results depend on the processing

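Of the 7 genes tested, the number called depended on the fold threshold. Without it, 3 were called in place of 1 in Pkd1-/- cells, 7 in place of 2 in Pkd2-/- cells and 7 in place of 3 between the mutants. Over all genes tested, dropping the fold threshold raised the share called from 6.24% to 27.1%, from 9.62% to 42.3% and from 11.8% to 46.3%. Over all 96 list genes tested, the counts were 54 in place of 22, 62 in place of 28 and 65 in place of 35. In Pkd2-/- cells 1 member was called, Lhx1, with a pseudocount of 5, with a minimum mean of 10 (6 members tested) or with only the 2 genotypes compared. Leaving out each library in turn gave 1 to 2 members in Pkd1-/- cells (2 without wild-type replicate 2), 1 to 2 in Pkd2-/- cells (1 without wild-type replicate 2 or 4) and 3 to 3 between the mutants. The list genes called ranged from 20 to 24, 25 to 30 and 32 to 36. Lhx1 in Pkd1-/- cells changed sign, to -0.001 without wild-type replicate 4 and to -0.108 without Pkd1-/- replicate 1, from 0.08, and ranged from -0.108 to 0.248 over all libraries left out. Gata2 in Pkd2-/- cells was at -0.78 with a pseudocount of 5, and its adjusted p was 0.0569 with only the 2 genotypes compared. The cause was not tested. Rescaling to the same upper quartile moved the median of all genes by less than 0.1. Of the same-numbered pairs of libraries, 4 of 12 correlated best with their own number. With a replicate block, 1, 2 and 3 members and 23, 28 and 35 list genes were called. Low counts limit Lhx1, Gata2 and Lhx1os.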
